A study of Mus musculus with 21 samples.

Results

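The comparison described here set mouse embryonic stem cells from the group labelled LIF HP against those from the group labelled 2i+LIF PO, the start of the study. Libraries were taken by these labels alone, which gave 3 of each and 6 of the 21 libraries in the series. All libraries were messenger RNA sequencing of E14Tg2a cells, which are male and of 129 background. In every group, controls included, 1 allele of Rex1 (Zfp42) carries GFPd2, a destabilised fluorescent reporter. The study looked for media that keep such cells pluripotent. Per the labels' protocols, cells grew in NDiff227, a serum-free medium, with the GSK3 inhibitor CHIR99021 and the MEK inhibitor PD0325901, and passages followed with CH, PD and LIF in alternation. They were sampled at zero passage and after 1 and 2 months, and the labels do not tie LP and HP to either length. Only 2i+LIF has a PO group, which was taken to be the zero passage sample. All libraries carry the same growth text, so the medium at harvest is known from the group label only. No source says that the replicates were separate cultures, so p-values measure the spread between these libraries, which may be technical.

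LIF is a cytokine that acts through its receptor and gp130 on the kinase JAK1 and the transcription factor STAT3, and it sustains self-renewal of mouse embryonic stem cells. The usual 2i medium adds inhibitors of MEK, the kinase that activates ERK, and of GSK3, which marks beta-catenin for degradation. Cells in 2i with LIF hold the naive state of the early epiblast, marked by factors such as Zfp42, Tbx3, Klf4, Esrrb and Nanog, with low genomic DNA methylation. When MEK inhibition ends, ERK target genes normally switch on and cells can move towards the formative state.

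Each LIF HP library held 1491637 to 2025879 gene counts and each PO library 2998748 to 3783043, over a range of 1132126 to 3783043 in the series. No pair of replicates among the 6 agreed within sampling noise (lowest chi-square per degree of freedom 14.8). By their file names, the 3 PO libraries were sequenced in one run and the remaining 18 in another, so the run and the PO group cannot be told apart. Gene lists, and part of the genes, were therefore also compared within the run: LIF HP against the mean of the 5 other cultured groups (2i+LIF LP, CH+LIF LP, LIF LP, 2i+LIF HP and CH+LIF HP, 15 libraries), all in one run. This second comparison shares the LIF HP libraries with the first and is no independent evidence for it. PO replicate 1 stood apart, with 39.1% of its gene counts from mitochondrial genes against 7.55% and 7.83% in the other PO libraries and 3.48 to 9.35% in LIF HP. Its log2 CPM (counts scaled to a common library size) correlated with its replicates at 0.83 on average, against 0.889 and 0.9 for the other PO libraries and 0.928 to 0.933 for LIF HP. Results are given with and without it where it mattered. Among the other cultured groups, 2i+LIF LP replicate 1 stood apart farther, with a mean correlation of 0.787, the lowest of the 21 libraries, 31.7% of its gene counts from Gm42418 and 0.21% from mitochondrial genes. It enters the shared estimate of spread and the within-run mean, and without it 1918 genes were called against PO (1306 with it) and 1708 within the run (1322 with it).

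The libraries labelled LIF HP went against their label in 1 respect. The label names no MEK inhibitor, yet several ERK target genes were at or near 0, as in PO. Dusp6, a phosphatase that inactivates ERK (ENSMUSG00000019960, chromosome 10, 99263231 to 99267489, with positions here and below in GRCm38), had 0, 1.23 and 0 CPM in LIF HP replicates 1, 2 and 3 and 3.69, 2.62 and 2.24 CPM in PO replicates 1, 2 and 3. Spry4, a feedback inhibitor of receptor tyrosine kinase signalling, had no count in any LIF HP library and 0, 0.262 and 0 CPM in PO. Egr1, an immediate-early transcription factor, had 0.515, 0.616 and 0 CPM in LIF HP and 0, 0.523 and 0.499 CPM in PO. Both groups were near 0 for these genes. Others were not: Spry2, of the same family as Spry4, had 86.1, 57.3 and 69 CPM in LIF HP and 157.2, 176 and 126 CPM in PO, and the 17 listed targets summed to 297.5 to 391 CPM and 346 to 516 CPM.

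The other groups were mostly higher. Dusp6 ranged from 15.3 to 47.1 CPM in the CH+LIF and LIF LP libraries, from 2.32 to 4.91 CPM in 2i+LIF HP, and was 0.701, 34.4 and 26.3 CPM in 2i+LIF LP. Etv4, a PEA3-family transcription factor induced by FGF and ERK, had 13.4, 14.2 and 5.15 CPM in LIF HP and 4.75, 6.54 and 4.49 CPM in PO, against group means of 43.6 to 155.1 CPM elsewhere. The highest mean was that of 2i+LIF LP, at 135.3, 168.8 and 161 CPM, although its label includes a MEK inhibitor. Egr1 had 0, 15.9 and 35.8 CPM there. These genes thus did not all follow the label in 2i+LIF LP either. Over the 13 tested of 17 listed ERK targets, none was called between LIF HP and PO by edgeR's quasi-likelihood test at an adjusted p of 0.05, with a median log2 fold change of -0.04 (3 at an unadjusted p under 0.05, a level that 28.7% of all genes reached, and 1 lower by DESeq2 and by limma-voom, which called 6.69% and 10.5% of all genes lower). The median was -0.26 to 0.24 without 1 of the 6 libraries. Against the other cultured groups 9 of the 13 were lower (against 4.09% of all genes), with a median of -1.94. What the medium of these libraries held was not tested, and they are called LIF HP below as labelled.

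**Figure D1:**
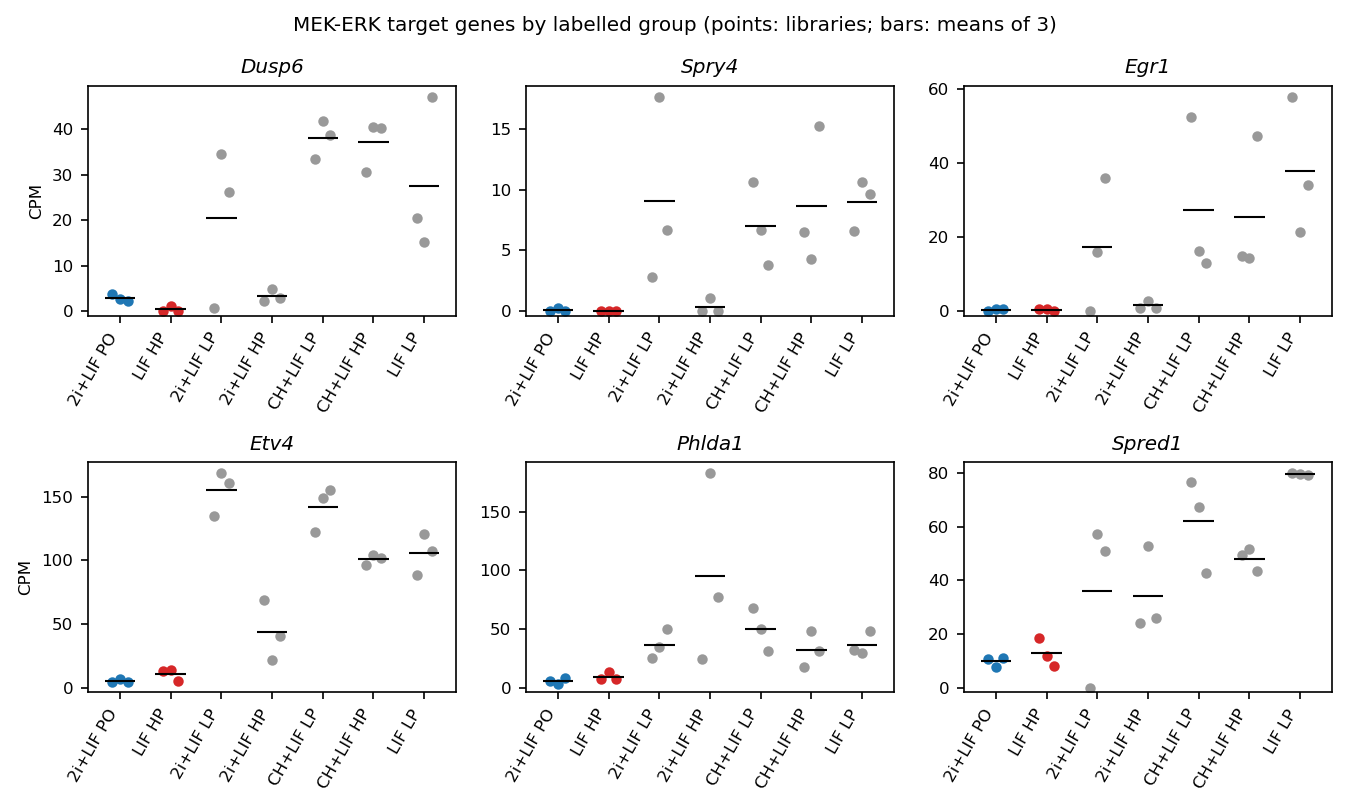
CPM (linear axis) of 6 ERK target genes in the 21 libraries, grouped by label on the horizontal axis. Points are libraries and bars are means of 3. The LIF HP libraries, labelled without a MEK inhibitor, lie near the 2i+LIF PO libraries, as with Dusp6 (0 to 1.23 CPM against 2.24 to 3.69 CPM).

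Of 10643 genes tested, 1306 (12.3%) differed between LIF HP and PO, 756 higher in LIF HP (7.1%) and 550 lower (5.17%). CPM of the 3 LIF HP libraries lay wholly above those of PO for 17.0% of tested genes and wholly below for 15.5%. The median log2 fold change over all tested genes was -0.10, and fold changes below are on the same scale. The count was 645 without PO replicate 1, 424 without LIF HP replicate 2 and 566 without LIF HP replicate 3. It lay between 993 and 1404 without any 1 of the remaining 3. A core of 313 genes, 246 higher and 67 lower, was called with all libraries and in all 6 fits that left 1 of them out. Counts of list members under other settings are to be read against the shares of all genes there. These were 14.2% higher and 10.5% lower by limma-voom, 8.34% and 6.69% by DESeq2, and 4.4% and 1.95% in a fit of the 6 libraries alone. They were 3.71% and 2.14% without PO replicate 1, 6.58% and 6.18% without PO replicate 2 and 4.48% and 4.56% without PO replicate 3. Without LIF HP replicates 1, 2 and 3 in turn, 5.96%, 2.89% and 3.48% were higher and 3.76%, 0.952% and 1.61% lower. Within the run, 1322 genes (12.4%) differed between LIF HP and the other cultured groups, 887 higher (8.33%) and 435 lower (4.09%).

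Fold changes followed transcript length. Genes were divided into 10 bins by total exon length. In the shortest bin (168 to 1750 bp) the median log2 fold change was 0.84, with 264 genes higher and 7 lower. In the longest bin (10199 to 123179 bp) it was -0.75, with 8 higher and 176 lower. The difference between the median centred log2 CPM of these bins was 0.59, 1.72 and 1.04 in LIF HP replicates 1, 2 and 3, and -1.60, 0.27 and -0.10 in PO. Thus LIF HP lay above PO in every library, with LIF HP replicate 2 and PO replicate 1 farthest out. The other 15 libraries ran from -1.22 to 0.52. Without PO replicate 1 the medians of the shortest and longest bins were 0.67 and -0.36, and against the other cultured groups 0.73 and -0.53. With each library's trend over length removed, 833 genes were called, 523 higher (4.91%) and 310 lower (2.91%), and 669 of them were shared in direction with the 1306 above. Among the genes described below, apart from the Rhox and Xlr genes of the last section, 20 lost their call in that fit: Atf5, Cdx1, Ddit3, Ebp, Eno1, Gja1, Hk2, Igf2r, Lifr, Pgam1, Phlda3, Pou5f1, Prap1, Rif1, Rps12, Slc25a31, Srrm2, Sycp3, Tet1 and Tfcp2l1 (edgeR adjusted p 0.0525 to 0.397). Whether the trend reflects the cells or the RNA was not tested.

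**Figure D2:**
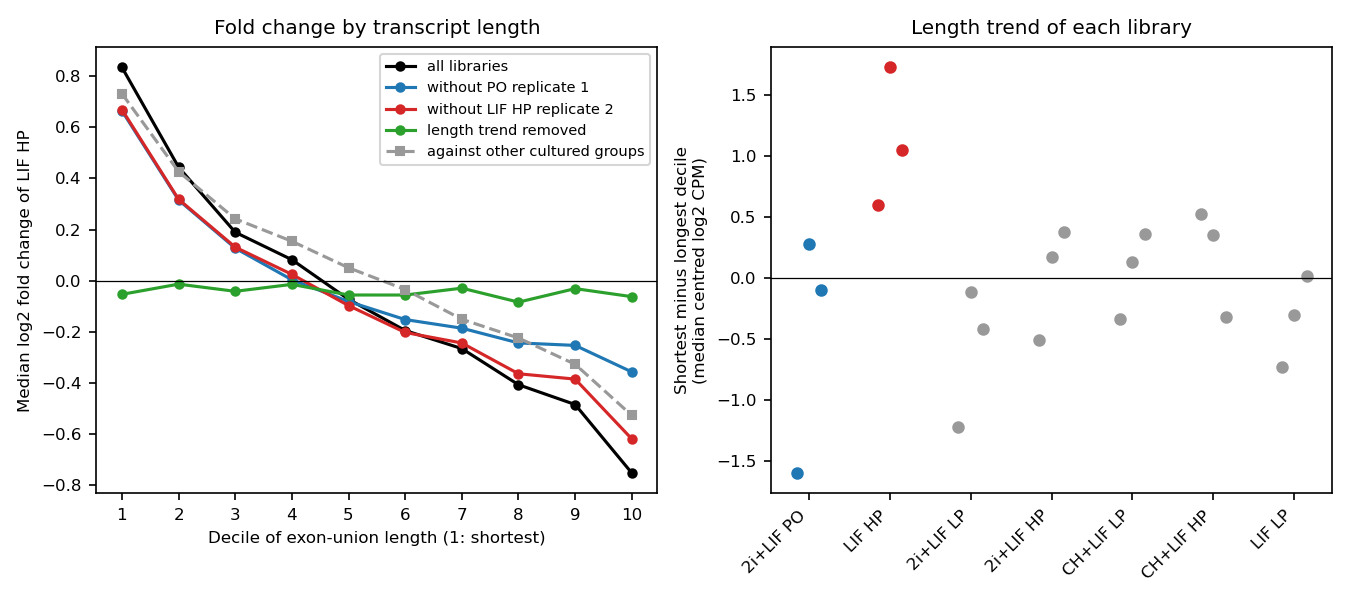
Left: median log2 fold change of LIF HP (vertical axis) in 10 bins of genes by total exon length, shortest first, for all libraries, without single libraries, with the length trend removed, and against the other cultured groups. Right: shortest minus longest bin, in median centred log2 CPM, for each library by group. The line for all libraries falls from 0.84 to -0.75, and the LIF HP libraries (0.59 to 1.72) lie above all others.

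Naive pluripotency factors were partly lower in LIF HP. Of 15 tested, 4 fell and none rose (26.7% lower, against 5.17% of all genes), with a median log2 fold change of -0.62. The count of falls was 2 without PO replicate 1 or LIF HP replicates 2 or 3, 1 in a fit of the 6 libraries alone and 7 by limma-voom, and the median was -0.86 to -0.33 without 1 of the 6. In bulk RNA, fewer cells of a type and less RNA per cell cannot be told apart, here and below. Zfp42, the reporter locus and a classic mark of the naive state (ENSMUSG00000051176, chromosome 8, 43295063 to 43306980), had 57.2, 54.8 and 68 CPM in LIF HP and 217, 343 and 135 CPM in PO. The groups did not overlap, and the log2 fold change was -1.95 (SE 0.36, edgeR adjusted p 0.00164). Tbx3, a T-box factor that sustains self-renewal downstream of LIF, had 201, 166 and 167 CPM against 729, 414 and 380.4 CPM. It fell by 1.51 on the log2 scale (edgeR adjusted p 0.00799), with every LIF HP library below every PO library. Both calls held without any 1 of the 6 libraries. In a fit of these 6 libraries alone that of Tbx3 was lost (edgeR adjusted p 0.0567). Within the run neither passed the test (log2 differences -0.45 and -0.65, edgeR adjusted p 0.332 and 0.131).

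Nr5a2 and Tfcp2l1, transcription factors of the naive network, made up the rest of the falls. Nr5a2 had 115, 69.6 and 113 CPM against 384, 223 and 246 CPM, and Tfcp2l1 534, 214 and 380.2 CPM against 1477, 687 and 861 CPM. PO replicate 1 was highest for both. Both calls were lost without LIF HP replicate 2, LIF HP replicate 3 or PO replicate 1, and that of Tfcp2l1 also without PO replicate 3 (edgeR adjusted p up to 0.128 and 0.188). Nanog had 254, 573 and 338 CPM in LIF HP and 308, 579 and 460.2 CPM in PO, overlapping ranges (edgeR adjusted p 0.747). Esrrb had 246, 135 and 201 CPM against 256, 341 and 381 CPM and missed the threshold (edgeR adjusted p 0.136). Within the run none of the 15 was lower and 2 were higher, Nanog among them (log2 difference 1.11, edgeR adjusted p 0.00673), with a median of 0.16.

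Of 13 tested core and shared pluripotency genes 2 rose (15.4%, against 7.1% of all genes) and 3 fell (23.1%, against 5.17%), with a median log2 fold change of -0.29. None rose without PO replicate 1 or LIF HP replicate 2, and with the length trend removed 1 rose, 4 fell and the median was -0.73. Within the run 3 were higher and 4 lower, with a median of -0.29. Utf1, a chromatin-bound factor of pluripotent cells (ENSMUSG00000047751, chromosome 7, 139943789 to 139945112), had 1.03, 6.77 and 3.09 CPM in LIF HP and 6.33, 59.1 and 65.3 CPM in PO. LIF HP replicate 2 lay only just above PO replicate 1, and the other PO libraries were far higher (log2 fold change of -3.60 with an SE of 0.73, edgeR adjusted p 0.00323). Utf1 was also lower than the mean of the other cultured groups (-3.59, edgeR adjusted p 0.0012), but not than 2i+LIF HP, at 4.65, 0.545 and 3.83 CPM. Sall4, a zinc-finger partner of Oct4, had 111, 44.3 and 62.9 CPM against 383, 178 and 236 CPM, without overlap (log2 fold change -1.86, edgeR adjusted p 0.00371), and was also lower within the run (-1.05, edgeR adjusted p 0.0296). For Sall4 2i+LIF HP overlapped LIF HP, at 186.8, 87.2 and 78.6 CPM. The calls of Utf1 and Sall4 against PO held without any 1 of the 6 libraries.

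The third fall was L1td1, an RNA-binding protein of stem cells, at 186, 132 and 161 CPM against 598, 392 and 487 CPM; its call was lost without LIF HP replicate 2 (edgeR adjusted p 0.0613). Pou5f1, which encodes Oct4, had 62.9, 99.2 and 68 CPM in LIF HP and 30.6, 25.9 and 31.2 CPM in PO and rose by 1.39 on the log2 scale (edgeR adjusted p 0.0231). That call was lost in 5 of the 6 fits without 1 library, all but the one without LIF HP replicate 1 (edgeR adjusted p up to 0.136). Dppa2, a DNA-binding activator of early embryonic genes, had 68, 94.2 and 81.4 CPM against 7.91, 30.6 and 27.7 CPM and lost its call without LIF HP replicate 2 or PO replicate 1 (edgeR adjusted p up to 0.0539). Sox2 had 427, 373 and 424 CPM against 622, 446 and 427 CPM and was not called. Of 7 tested formative and primed epiblast genes, Otx2 alone was called (14.3%, against 5.17% of all genes lower). Their median of 0.43 turned to -0.38 without LIF HP replicate 1 and -0.07 without LIF HP replicate 3, and within the run 2 were lower and the median was -0.90. This homeobox factor had 0, 3.69 and 0 CPM in LIF HP and 5.28, 24.8 and 9.22 CPM in PO (log2 fold change -3.28, edgeR adjusted p 0.0109).

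**Figure D3:**
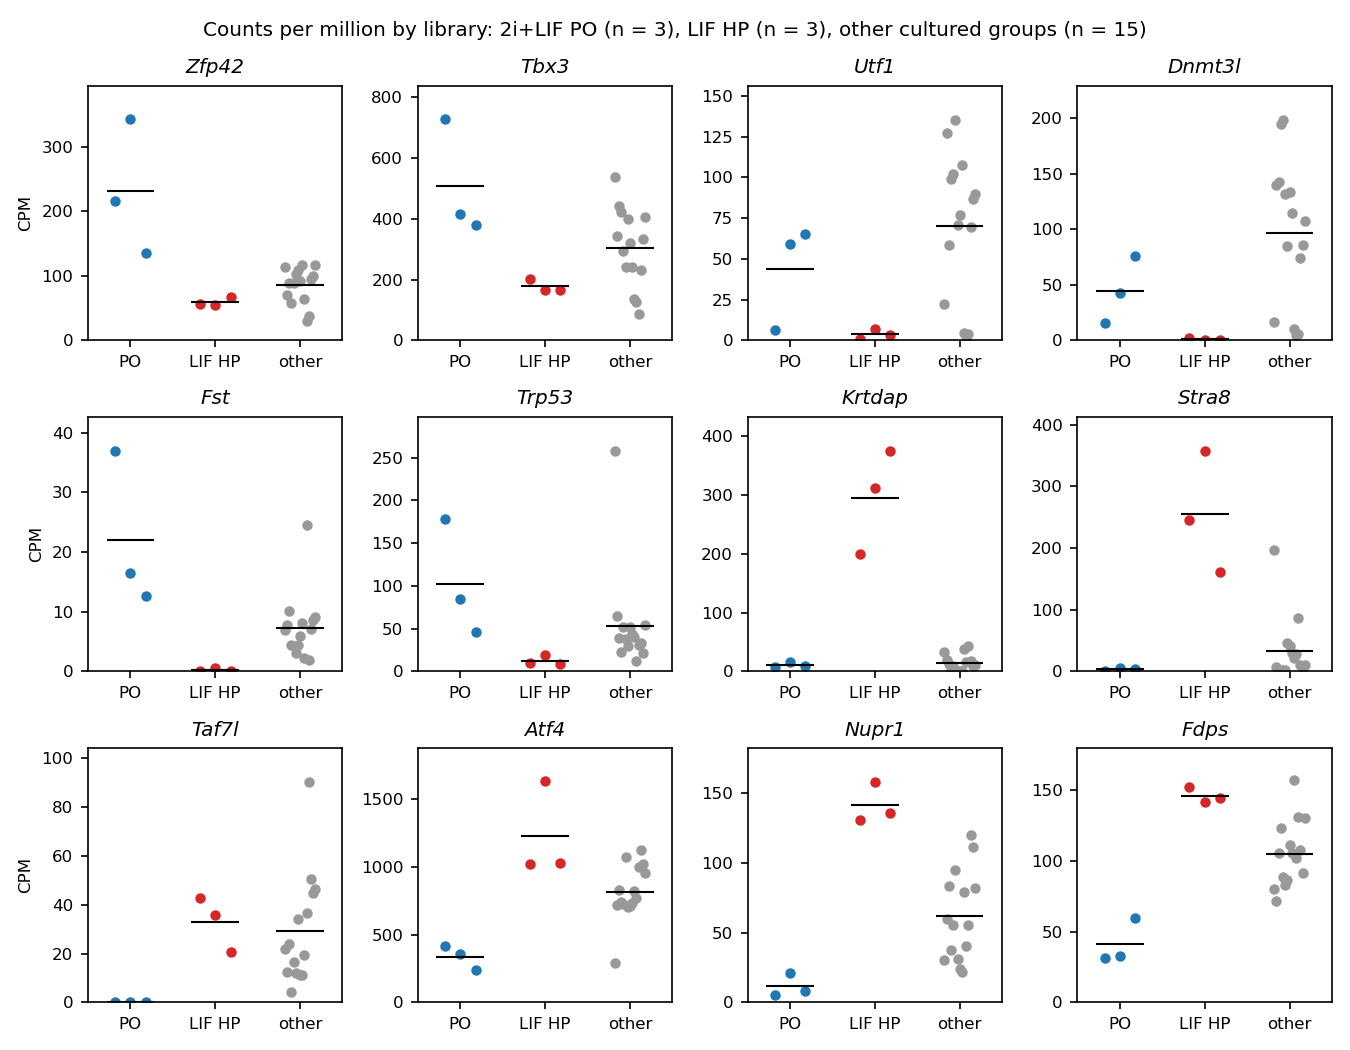
CPM (linear axes) of 12 genes described in the text, with 1 point per library for 2i+LIF PO (3), LIF HP (3) and the other cultured groups (15), and bars for means. The LIF HP points are the lower ones for Zfp42 (54.8 to 68 CPM against 135 to 343 CPM) and the higher ones for Krtdap (199.9 to 374 CPM against 7.39 to 15.7 CPM).

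Of 11 LIF and STAT3 genes (median log2 fold change -0.61), Lifr, the LIF receptor, was the 1 call (9.09%, against 12.3% of all genes called in either direction). It had 30.4, 18.5 and 21.6 CPM against 236, 29.3 and 51.9 CPM, with PO replicate 1 far above the rest. Without that library the edgeR adjusted p was 0.226, and the call was also lost without LIF HP replicate 2. Within the run Lifr was lower (-1.42, edgeR adjusted p 0.0338), as 1 of 2 genes of the list called lower there, with a median of -0.06. For Lifr 2i+LIF HP overlapped LIF HP, at 49.3, 19.6 and 25.9 CPM. Stat3 had 189, 49.9 and 91.7 CPM against 159.9, 240.3 and 228 CPM, overlapping ranges. Of 12 Wnt and beta-catenin targets 1 rose and 1 fell (8.33% each, near the 7.1% and 5.17% of all genes). Their median of -0.15 turned to 0.23 without PO replicate 1 and to 0.06 and 0.10 without LIF HP replicates 2 and 3, and within the run 1 was higher, 1 lower and the median 0.86. Cdx1, a caudal-type homeobox gene, had 31.9, 36.3 and 38.1 CPM against 6.86, 0.784 and 10.7 CPM (edgeR adjusted p 0.0305). Its call was lost in all fits without 1 of the 6 libraries except the one without PO replicate 3 (edgeR adjusted p up to 0.0901). Within the run it was 3.92 higher on the log2 scale than the mean of the other groups (edgeR adjusted p 0.000183), while 2i+LIF HP had 32.5, 70.3 and 15.3 CPM, a range that holds that of LIF HP. Ccnd1, the cyclin D1 gene, had 59.8, 54.8 and 50.5 CPM against 220.5, 87.3 and 110.4 CPM. Its call was lost without LIF HP replicates 2 or 3 or PO replicate 1 (edgeR adjusted p up to 0.164).

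Of 13 Nodal, activin and BMP genes only Fst was called (7.69%, against 5.17% of all genes lower). The median log2 fold change was -0.54, and -0.20 without PO replicate 1. Fst encodes follistatin, which binds and blocks activin (ENSMUSG00000021765, chromosome 13, 114452290 to 114458951; it overlaps Gm47040). It had 0, 0.616 and 0 CPM in LIF HP, 1 count in all, and 36.9, 16.5 and 12.7 CPM in PO, 98.9 times as much (counting interval 17.5 to 3926, edgeR adjusted p 0.000684). It was also lower than in the other cultured groups, whose group means were 3.88 to 9.59 CPM (edgeR adjusted p 0.0043) and of whose libraries none was as low as the highest of LIF HP. Within the run, Bmp4 and its targets Id1 and Id2 were lower as well, as 3 of the 4 genes of the list called lower there, with 1 higher and a median of -0.48. Against PO they were not called, with log2 fold changes of -1.35 for Bmp4, 1.38 for Id1 and -0.95 for Id2. Id1 thus went the other way there. Bmp4 had 27.3, 33.9 and 36.1 CPM in LIF HP and 157.2, 47.1 and 44.1 CPM in PO.

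Of 10 tested genes of DNA methylation 3 fell (30%, against 5.17% of all genes) and none rose, with a median log2 fold change of -0.90. These genes are long, at a median of 7984 bp against 4537 bp for all genes, and with the length trend removed 2 fell, 1 rose and the median was -0.37. Within the run 3 were lower and none higher, with a median of -0.84. Dnmt3l, the cofactor that stimulates the de novo methyltransferases (ENSMUSG00000000730, chromosome 10, 78041947 to 78063622; it overlaps Aire), had 2.58, 0.616 and 0 CPM in LIF HP and 15.3, 43.1 and 76.3 CPM in PO. The LIF HP libraries held 6 counts together, and the log2 fold change was -5.08 (SE 0.79, edgeR adjusted p 0.000337). Against the other cultured groups, at 6.96 to 175 CPM on average, the log2 difference was -5.62 (edgeR adjusted p 2.81e-05). Zfp57, a zinc-finger protein that keeps methylation at imprinted regions, had 26.3, 25.9 and 17.5 CPM against 202, 94.9 and 69.5 CPM (log2 fold change -2.37, edgeR adjusted p 0.00252). Both calls held without any 1 of the 6 libraries.

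Tet1, which oxidises methylated cytosine, had 234, 48.6 and 184 CPM against 1247, 244 and 406 CPM, with PO replicate 1 the highest. Its call was lost without that library, LIF HP replicate 2 or LIF HP replicate 3 (edgeR adjusted p up to 0.23). Dnmt3a, a de novo methyltransferase, was the gene that rose once the length trend was removed (edgeR adjusted p 0.007), and with that trend in place it was not called (edgeR adjusted p 0.123). Dnmt1, the maintenance methyltransferase, had 98.4, 51.7 and 65.9 CPM against 142.4, 102 and 110.4 CPM and was not called (edgeR adjusted p 0.275).

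Part of the germline genes that promoter methylation is known to silence rose in LIF HP. Of 21 tested of 27 listed, 5 rose (23.8%, against 7.1% of all genes) and none fell, with a median log2 fold change of 1.03. The count of rises was 2 without LIF HP replicate 3, 3 without LIF HP replicate 2, PO replicate 1 or PO replicate 3, and 4 and 5 without the others. With the length trend removed 3 rose and the median was 0.54, limma-voom called 10 higher (14.2% of all genes were), and in a fit of the 6 libraries alone 2 rose. Within the run 1 was higher and 1 lower, with a median of 0.30. The promoters of the 5 are shown because all 5 hold CACGTG, the E-box that MAX and its partner MGA, repressors of germline genes in stem cells, bind. Each line gives the 250 bases before the RefSeq start (GRCm38.p6, 5′ to 3′), with CACGTG in capitals.

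Taf7l, chrX:134476491-134476740, minus strand: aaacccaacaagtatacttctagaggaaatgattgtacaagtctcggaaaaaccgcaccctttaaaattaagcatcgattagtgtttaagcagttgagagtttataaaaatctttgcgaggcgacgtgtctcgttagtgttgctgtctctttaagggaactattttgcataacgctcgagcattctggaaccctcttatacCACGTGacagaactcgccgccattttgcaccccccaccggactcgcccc
Ddx4, chr13:112652311-112652560, minus strand: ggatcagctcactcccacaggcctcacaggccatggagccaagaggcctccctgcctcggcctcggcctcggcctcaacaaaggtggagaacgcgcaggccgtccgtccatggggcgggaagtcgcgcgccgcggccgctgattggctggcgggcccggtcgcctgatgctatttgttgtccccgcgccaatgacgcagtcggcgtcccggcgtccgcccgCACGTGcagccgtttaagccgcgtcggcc
Sycp3, chr10:88459337-88459586, plus strand: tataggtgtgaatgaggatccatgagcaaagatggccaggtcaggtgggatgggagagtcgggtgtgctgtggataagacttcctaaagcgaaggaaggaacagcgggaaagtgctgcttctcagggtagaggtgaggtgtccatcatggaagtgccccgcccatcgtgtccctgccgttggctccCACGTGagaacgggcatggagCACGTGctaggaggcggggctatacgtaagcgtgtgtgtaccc
Slc25a31, chr3:40708621-40708870, plus strand: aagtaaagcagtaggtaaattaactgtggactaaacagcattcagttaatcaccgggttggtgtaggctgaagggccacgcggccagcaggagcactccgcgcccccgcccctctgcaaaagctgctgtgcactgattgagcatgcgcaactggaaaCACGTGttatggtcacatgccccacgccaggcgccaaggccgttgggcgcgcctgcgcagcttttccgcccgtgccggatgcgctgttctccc
Fkbp6, chr5:135350045-135350294, minus strand: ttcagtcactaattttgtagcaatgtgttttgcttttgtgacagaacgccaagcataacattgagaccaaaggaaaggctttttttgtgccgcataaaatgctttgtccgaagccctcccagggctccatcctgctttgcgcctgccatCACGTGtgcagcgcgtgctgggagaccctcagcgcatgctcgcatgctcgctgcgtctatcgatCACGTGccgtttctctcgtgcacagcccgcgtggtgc

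Over the RefSeq window of 250 bases before to 50 after the start, CACGTG (its own reverse complement, so both strands at once) was present in 15 of the 26 listed genes that had a promoter in the table (57.7%). Over all genes it was present in 2187 of 27025 (8.09%). The list was drawn up from known methylation-silenced genes, and these letters are a description, not evidence of binding. For Fkbp6 the table held a second start 131 bases downstream, whose window contains the same motifs.

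Taf7l, a TFIID subunit of male germ cells on the X chromosome (ENSMUSG00000009596, chromosome X, 134460118 to 134476490), had 42.8, 35.7 and 20.6 CPM in LIF HP and no count in any PO library. It was at least 99.9-fold higher (edgeR adjusted p 1.41e-05). In the other cultured groups it had 10.9 to 48.7 CPM on average, and LIF HP did not pass the test against them (edgeR adjusted p 0.514). Fkbp6, a co-chaperone of the piRNA pathway, had 203, 174 and 92.7 CPM against 3.69, 53.3 and 36.4 CPM, without overlap (log2 fold change 2.31, edgeR adjusted p 0.0112). Both calls held without any 1 of the 6 libraries, and in a fit of these 6 alone that of Fkbp6 was lost (edgeR adjusted p 0.0613).

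The remaining calls of the list rested on fewer libraries. Ddx4, the germ cell helicase Vasa, had 7.21, 6.77 and 11.3 CPM against 0.528, 0 and 1.99 CPM. Sycp3, of the synaptonemal complex, had 29.9, 51.1 and 60.8 CPM against 21.6, 7.06 and 8.48 CPM, and Slc25a31, a testis ADP/ATP carrier, 6.18, 2.46 and 5.15 CPM against 0, 1.05 and 0.748 CPM. Each kept its call in 2 of the 6 fits without 1 library. Ddx4 lost it without LIF HP replicates 2 or 3 or PO replicates 1 or 2, Sycp3 without LIF HP replicates 2 or 3 or PO replicates 2 or 3, and Slc25a31 without LIF HP replicates 1 or 3 or PO replicates 1 or 3. The edgeR adjusted p reached 0.076, 0.117 and 0.099. Dazl, an RNA-binding protein of germ cells, had 60.8, 113 and 63.9 CPM against 15.3, 48.9 and 21.9 CPM and missed the threshold (edgeR adjusted p 0.064).

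Stra8 and Dmrt1 are not on that list. They were among the 10 largest rises by fold of called genes without overlap and with at least 5 CPM in 1 group. Stra8, the retinoic acid-induced gatekeeper of meiosis (ENSMUSG00000029848, chromosome 6, 34920163 to 34939344), had 246, 357 and 161 CPM in LIF HP and 0.528, 6.01 and 3.24 CPM in PO. The log2 difference was 6.15 (SE 1.04, edgeR adjusted p 0.000726), and the level was also above the mean of the other cultured groups (3.76, edgeR adjusted p 9.44e-05). Of those groups, 2i+LIF LP replicate 1, at 196 CPM of Stra8, lay within the range of LIF HP. Dmrt1, a transcription factor of the male gonad and germline, had 27.8, 24 and 23.7 CPM against 1.58, 0 and 0.499 CPM (log2 fold change 5.38, edgeR adjusted p 0.000106). Within the run Dmrt1 did not pass the test (log2 difference -0.02, SE 0.41).

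Of 18 tested imprinted genes 4 rose (22.2%, against 7.1% of all genes) and 2 fell (11.1%, against 5.17%), with a median log2 fold change of 0.10. That median was 0.05 to 0.39 without 1 of the 6 libraries and 0.45 with the length trend removed, and within the run 3 were lower, none higher and the median 0.01. Mest, a paternally expressed gene, had 3.09, 3.08 and 5.15 CPM against 0.528, 0 and 0 CPM; PO held 1 count, so that LIF HP had 29.8 times as much (counting interval 4.63 to 1249, edgeR adjusted p 0.0105). It overlaps Copg2, and within the run it was lower in LIF HP (edgeR adjusted p 0.0411). Dio3, an iodothyronine deiodinase, had 4.64, 1.23 and 2.06 CPM against 24.3, 36.9 and 23.4 CPM (edgeR adjusted p 0.0127). The calls of Dio3 and Igf2r, the falls of the list, were lost without LIF HP replicates 2 or 3 (edgeR adjusted p up to 0.0815 and 0.113). That of Igf2r was also lost without PO replicate 3. Of the rises, Plagl1 (2.16 on the log2 scale), Ndn (1.80) and Gnas (1.12) are each expressed from 1 parental allele in some tissues. Plagl1 lost its call without LIF HP replicate 1 or PO replicate 1, Ndn without LIF HP replicate 2 or PO replicates 1 or 3, and Gnas without LIF HP replicate 2 (edgeR adjusted p up to 0.155, 0.165 and 0.0795).

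Many genes of the ATF4 stress and amino acid response rose in LIF HP. Of 23 tested, 10 rose (43.5%, against 7.1% of all genes) and none fell, with a median log2 fold change of 1.02. With the length trend removed 8 rose and the median was 0.60. Atf4, the transcription factor of this response, had 1022, 1638 and 1030 CPM in LIF HP and 419, 356 and 239 CPM in PO, without overlap. Its log2 fold change was 1.86 (SE 0.37, edgeR adjusted p 0.00281). Nupr1, a small stress-induced chromatin protein (ENSMUSG00000030717, chromosome 7, 126623249 to 126630861), had 131, 158.3 and 136 CPM against 5.28, 21.4 and 8.23 CPM, a change of 3.56 (SE 0.47, edgeR adjusted p 8.8e-05). It was also above the other cultured groups (1.33, edgeR adjusted p 0.00492), with no LIF HP library as low as the highest of these.

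Trib3, a pseudokinase that restrains ATF4, had 24.7, 42.5 and 24.7 CPM against 3.69, 9.15 and 4.49 CPM (edgeR adjusted p 0.00354). Atf3, an ATF4-induced factor, had 10.3, 24 and 12.4 CPM against 1.58, 1.31 and 1.25 CPM (edgeR adjusted p 0.00278). Mthfd2, of mitochondrial one-carbon metabolism, had 207, 188 and 199.9 CPM against 26.9, 77.1 and 45.4 CPM (edgeR adjusted p 0.00164). For all 3 the groups stood apart. Vldlr, a lipoprotein receptor, had 4.12, 4.93 and 13.4 CPM against 0, 0.262 and 0 CPM, 1 count in PO and 54 times as much in LIF HP (counting interval 8.95 to 2205). Ddit3, the stress-induced factor CHOP, had 39.7, 41.9 and 58.7 CPM against 14.2, 7.06 and 9.72 CPM, without overlap (log2 fold change 2.19, edgeR adjusted p 0.00397). It lost its call with the length trend removed (edgeR adjusted p 0.0563). These and Atf4 and Nupr1 are the 7 that kept their call without any 1 library. Atf5, a factor of the same family, and Psat1 and Psph, enzymes of serine synthesis, lost theirs in 3, 2 and 4 of those fits, including the ones without LIF HP replicate 2 and PO replicate 1. The others were without LIF HP replicate 1 for Atf5, and LIF HP replicate 3 and PO replicate 3 for Psph (edgeR adjusted p up to 0.0808, 0.08 and 0.195). Within the run 3 of the 23 were higher and the median was -0.03.

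Of 17 p53 genes 2 rose (11.8%) and 1 fell (5.88%), near the shares of all genes (7.1% and 5.17%), with a median log2 fold change of 0.04. That median turned to -0.15 without PO replicate 1 and to -0.13 and -0.02 without LIF HP replicates 1 and 2, and within the run 4 were higher, 1 lower and the median 0.67. Gdf15, a stress-induced cytokine, had 129, 136 and 89.6 CPM against 8.44, 25.1 and 7.98 CPM (log2 fold change 3.07, edgeR adjusted p 0.000303). Trp53 itself, which encodes p53 (ENSMUSG00000059552, chromosome 11, 69580359 to 69591873), had 10.3, 19.7 and 8.24 CPM in LIF HP and 178, 84.7 and 45.9 CPM in PO. The LIF HP libraries all lay below PO (a log2 change of -2.97 with SE 0.63, and edgeR adjusted p 0.00412), and below the mean of the other cultured groups (-1.80, edgeR adjusted p 0.0278), with 2i+LIF HP at 40.4, 12.5 and 30.7 CPM overlapping them. Without PO replicate 1, the highest, the log2 fold change was -2.35 (edgeR adjusted p 0.0253). Phlda3, a p53-induced inhibitor of AKT, rose by 1.57 on the log2 scale and lost its call without LIF HP replicates 1 or 2 or PO replicate 1 (edgeR adjusted p up to 0.172).

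Of 29 tested genes of cholesterol and fatty acid synthesis, 6 rose (20.7%, against 7.1% of all genes) and none fell, with a median log2 fold change of 0.19, which turned to -0.05 without PO replicate 1 and to -0.07 by limma-voom. In a fit of the 6 libraries alone 3 rose, and without PO replicates 1 or 3 or LIF HP replicates 2 or 3 the count was 4. All 6 encode enzymes of sterol synthesis. Fdps, farnesyl diphosphate synthase, had 152.5, 141.6 and 144.2 CPM against 31.6, 32.9 and 59.8 CPM (a log2 change of 1.81 with SE 0.32, and edgeR adjusted p 0.00126). Mvd, mevalonate diphosphate decarboxylase, had 244, 196 and 204 CPM against 60.1, 58.6 and 42.9 CPM (log2 fold change 2.00, edgeR adjusted p 0.00144). In both the LIF HP libraries lay close together and wholly above PO. Pmvk (2.18) and Ebp (1.39) also kept their calls without any 1 of the 6 libraries. Pmvk lost its call in a fit of these 6 alone (edgeR adjusted p 0.0503) and Ebp with the length trend removed (edgeR adjusted p 0.0543). Msmo1 and Cyp51 lost theirs without LIF HP replicates 2 or 3 or PO replicates 1 or 3 (edgeR adjusted p up to 0.111 and 0.115).

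Within the run none of the 29 genes of cholesterol and fatty acid synthesis was higher and 1 was lower, with a median of 0.0014. Of 19 glycolysis genes 1 rose (5.26%, against 7.1% of all genes) and 2 fell (10.5%, against 5.17%), with a median of -0.58. Limma-voom called 9 lower and 1 higher, a fit of the 6 libraries alone called none, and the median ran from -0.94 without PO replicate 1 to -0.22 without PO replicate 3. In the within-run comparison 1 was lower and none higher, with a median of -0.21. Pgam1, a phosphoglycerate mutase, rose at 61.8, 89.3 and 51.5 CPM against 14.2, 30.6 and 37.6 CPM. The falls were Hk2, a hexokinase, at 200.5, 71.4 and 178 CPM against 356, 327 and 443 CPM, and Eno1, an enolase, at 28.9, 15.4 and 45.3 CPM against 148.2, 58.6 and 82.8 CPM. Among the fits without 1 of the 6 libraries, Pgam1 kept its call only without PO replicate 3, Hk2 only without LIF HP replicate 1 or PO replicate 2, and Eno1 lost its call without LIF HP replicates 1 or 2 or PO replicate 1 (edgeR adjusted p up to 0.209, 0.199 and 0.164). Pgam1 also lost it without any 1 of 8 libraries of other groups. Pgam1 and Eno1 have near-identical copies in the mouse genome, and their counts are uncertain to that extent. None of 22 replication and mitosis genes was called by edgeR (3 at an unadjusted p under 0.05, against 28.7% of all genes, 0 by DESeq2, and 1 higher and 7 lower by limma-voom, against 14.2% and 10.5% of all genes), with a median of -0.28, which ran from -0.58 without PO replicate 1 to -0.11 without PO replicate 3. Within the run 2 were lower. None of 7 genes of Polycomb repressive complex 2 was called by edgeR (3 at an unadjusted p under 0.05, 1 lower by DESeq2, and 1 higher and 2 lower by limma-voom, against the same shares and 6.69% lower by DESeq2), and within the run 1 was lower.

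**Figure D4:**
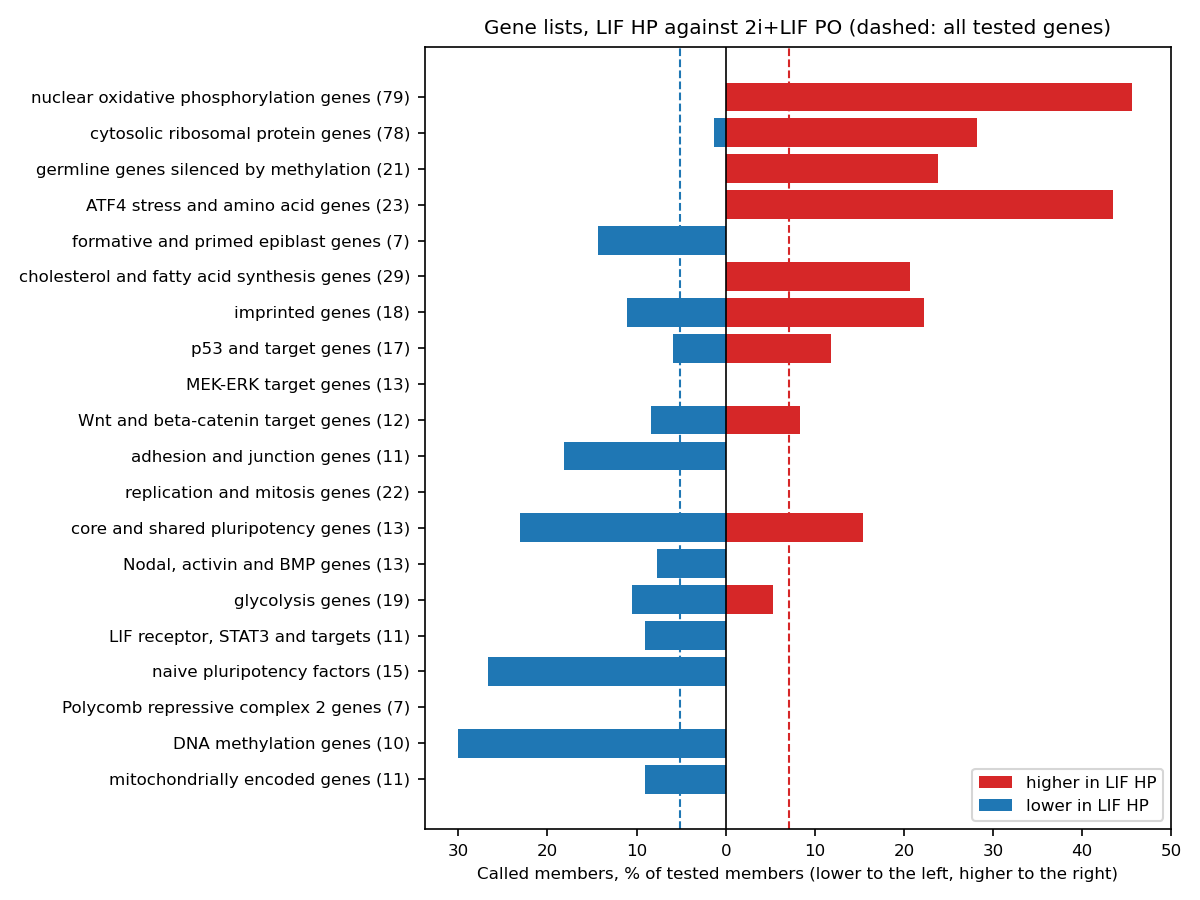
Share of tested members of each gene list called higher (right, red) or lower (left, blue) in LIF HP against PO, in percent, with the number tested in brackets. Dashed lines mark the shares over all tested genes (7.1% higher, 5.17% lower). Nuclear oxidative phosphorylation genes reach the highest share called higher, at 45.6%.

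Of 79 tested nuclear genes of oxidative phosphorylation 36 rose (45.6%, against 7.1% of all genes) and none fell, with a median log2 fold change of 1.19. Ndufa2, of complex I, had 691, 1033 and 1123 CPM in LIF HP and 131, 212 and 135 CPM in PO (log2 fold change 2.57, edgeR adjusted p 0.000776). Cox7a1, a subunit of cytochrome c oxidase known from heart and muscle, had 132, 208 and 299 CPM against 0, 29.3 and 12.2 CPM. It was also above the other cultured groups (3.12, edgeR adjusted p 2.88e-05). Uqcrh, of complex III, had 1384, 1910 and 3265 CPM against 137, 498 and 299.6 CPM (log2 fold change 2.81, edgeR adjusted p 0.00152). Without 1 of the 6 libraries 18 to 40 of the list rose, with 18 without PO replicate 1, LIF HP replicate 2 or LIF HP replicate 3, and 23 without PO replicate 3. In all, 16 rose in all 6 fits.

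Of 78 tested ribosomal protein genes 22 rose (28.2%, against 7.1% of all genes) and 1, Rps2, fell, with a median log2 fold change of 1.12. Rps20 had 19340, 31310 and 41880 CPM against 2844, 7819 and 5516 CPM (log2 fold change 2.52, edgeR adjusted p 0.00397), and Rpl13 7907, 10810 and 12390 CPM against 2614, 3150 and 2512 CPM (1.91, edgeR adjusted p 0.00278). Both held without any 1 library, and Rpl13 was lost in a fit of the 6 libraries alone (edgeR adjusted p 0.0554). The count of rises was 8 without LIF HP replicate 3, 9 without LIF HP replicate 2 or PO replicate 1, 10 without PO replicate 3, and 25 and 34 without the remaining libraries. The call of Rps2 was lost in every one of these fits but that without PO replicate 1 (edgeR adjusted p up to 0.111). Rps12 and Rps14, among the largest rises by CPM, as were Rps20, Rps25 and Rpl13, lost theirs without LIF HP replicate 3, PO replicate 1 or PO replicate 3, and Rps12 also without LIF HP replicate 2 or any 1 of 11 libraries of other groups (edgeR adjusted p up to 0.213 and 0.0812). Many ribosomal protein genes have near-identical processed copies, and their counts are uncertain to that extent. Reads listed as aligned at more than 1 place, which are in no gene's count, made up 30.3, 35.4 and 34.3% of all entries in the tables of LIF HP replicates 1, 2 and 3, wholly above PO (24.3 to 27.3%) and mostly above the other 15 libraries (20.8 to 30.4%). Reads in no gene made up 8.46% in LIF HP replicate 2, the lowest of the 21 libraries. The part of these shares in the ribosomal and oxidative phosphorylation results was not tested.

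These lists hold short genes, with a median total exon length of 1587 bp for oxidative phosphorylation and 1776 bp for ribosomal proteins against 4537 bp for all genes. With each library's length trend removed, 20 and 14 of them rose, 0 and 2 fell, and the medians were 0.59 and 0.50. In a fit of the 6 libraries alone 19 and 7 rose, by limma-voom 46 and 45, and without PO replicate 1 the medians were 0.79 and 0.73. Within the run 50 of 79 and 57 of 78 were higher and none lower, with medians of 1.19 and 1.36. The summed CPM of the ribosomal list ran from 211200 to 450300 in LIF HP, from 52740 to 174700 in PO and from 64930 to 218000 elsewhere.

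Of 11 tested mitochondrially encoded genes 1 fell (9.09%, against 5.17% of all genes), and the median log2 fold change was -1.30. The direction differed between settings: without PO replicate 1 none was called and the median was 0.47, by limma-voom 1 was higher and the median was 0.46, and within the run 1 was higher, none lower and the median 0.96. With the length trend removed 6 fell, with a median of -2.62. The gene called, mt-Co2, lost its call without PO replicate 1, any 1 of the LIF HP libraries or any 1 of 6 libraries of other groups (edgeR adjusted p up to 0.692).

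The largest rises by fold were taken from called genes without overlap and with at least 5 CPM in 1 group. Beside Taf7l, Stra8, Dmrt1 and Vldlr, they were Cap2, Myo1f, Sct, Crygd, Fam19a4 and 1700013H16Rik, of which all but Myo1f had at most 3 counts over the PO libraries. Cap2, an actin-binding cyclase-associated protein, had 19.07, 11.7 and 9.27 CPM in LIF HP and none in PO, at least 40.3-fold more (edgeR adjusted p 0.000617). Myo1f, an unconventional myosin of immune cells, had 118, 115 and 114 CPM against 0, 3.92 and 3.49 CPM (a log2 change of 5.36 with SE 0.54, and edgeR adjusted p 2.33e-06). All LIF LP libraries were higher than LIF HP for Myo1f, at 131.6, 184.6 and 135.6 CPM. Sct, which encodes secretin, had 12.4, 8.01 and 12.4 CPM, and Crygd, a lens crystallin, 10.8, 13.6 and 1.03 CPM. Each had 1 count in PO, for ratios of 91.2 (15.6 to 3675 by counting error) and 81.9 (13.9 to 3307). Fam19a4 and 1700013H16Rik had ratios of 128 (22.3 to 5145) and 41.6 (13.6 to 207).

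Krtdap, a keratinocyte differentiation-associated secreted protein (ENSMUSG00000074199, chromosome 7, 30787896 to 30791097), had the largest within-run difference of the named genes called higher in both comparisons. Against PO its fold change was below those of Stra8 (6.15) and Myo1f (5.36), both also above the mean of the other cultured groups. It had 199.9, 311 and 374 CPM in LIF HP, 7.39, 15.7 and 9.97 CPM in PO and 0 to 43.1 CPM in the other 15 libraries, none of which reached the lowest LIF HP library. The log2 fold change against PO was 4.71 (SE 0.52, edgeR adjusted p 8.57e-06) and that within the run 5.27 (SE 0.31, edgeR adjusted p 1.33e-11). Cidea, a lipid droplet protein, had 62.9, 51.1 and 71.1 CPM against 0, 3.14 and 4.49 CPM (4.43, edgeR adjusted p 0.00132; within the run 3.80, edgeR adjusted p 1.3e-05). Wdr93 and Prap1 were also higher in both comparisons and lost their calls against PO, Wdr93 without PO replicate 3 and Prap1 without LIF HP replicates 2 or 3 or PO replicates 1 or 2 (edgeR adjusted p up to 0.0524 and 0.0825). In 2i+LIF HP, Wdr93 had 3.72, 9.81 and 19.2 CPM and Prap1 0.465, 3.27 and 8.63 CPM. LIF HP had 10.5 to 13.4 and 6.77 to 12.4 CPM, so these groups overlapped.

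Among the largest falls, beside Fst and Dnmt3l, Tmem132d, a transmembrane protein (11.1, 11.2 and 2.24 CPM in PO), had no count in LIF HP. It was at least 13.1-fold lower, a call lost without LIF HP replicate 2 (edgeR adjusted p 0.0605). Zfp462, a zinc-finger protein that restrains lineage genes in stem cells, had 7.21, 4.93 and 9.27 CPM against 99.7, 32.4 and 34.9 CPM (a log2 change of -2.97 with SE 0.49, and edgeR adjusted p 0.000487). It was likewise lower within the run, at -3.36 (edgeR adjusted p 2.81e-05), and its LIF HP libraries lay below all 18 others. Ttn, the giant muscle protein titin, had 9.28, 2.46 and 6.18 CPM against 573, 37.1 and 51.1 CPM, with PO replicate 1 far out, and fell by 2.88 on the log2 scale without that library (edgeR adjusted p 0.0303).

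PO replicate 1 was the highest library for most of the other named falls. It had 43.3 CPM of Cyp2s1, a cytochrome P450, and 26.4 CPM of Chd5, a chromatin remodeller, against at most 14.5 and 6.73 CPM in the other 5 libraries. These calls held without it (edgeR adjusted p 0.0168 and 0.0341). Those of Gm26870, Pdzrn4, Platr20, Hlf, Elmo1 and 9330185C12Rik did not (edgeR adjusted p 0.0687, 0.172, 0.0937, 0.0775, 0.0519 and 0.127). Pdzrn4, Platr20 and Hlf also lost theirs without LIF HP replicate 2, Pdzrn4, Hlf and Elmo1 without LIF HP replicate 1, and Elmo1 without LIF HP replicate 3 (edgeR adjusted p up to 0.172, 0.0937, 0.0776 and 0.0617). By difference of CPM the largest falls were Malat1, a nuclear long noncoding RNA, and Ncor1, Rif1, Srrm2, Cdh1 and Tfcp2l1. Malat1 had 2330, 647 and 3186 CPM against 30290, 5074 and 5971 CPM, and the first 4 also lost their call without PO replicate 1 (edgeR adjusted p 0.0616, 0.25, 0.211 and 0.169). Ncor1, Rif1 and Srrm2 lost it also without LIF HP replicate 2, and Rif1 and Srrm2 without LIF HP replicate 3 (edgeR adjusted p up to 0.25, 0.211 and 0.169).

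Cdh1, the E-cadherin of epithelial and stem cell contacts, had 627, 306 and 424 CPM against 922, 1340 and 919 CPM. Its call was lost without LIF HP replicates 2 or 3 or PO replicate 2 (edgeR adjusted p up to 0.117). It was 1 of 2 falls among 11 adhesion genes (18.2%, against 5.17% of all genes), a count of 0 without LIF HP replicates 2 or 3 or in a fit of the 6 libraries alone. The median log2 fold change of the list was -0.20, and 0.14 without PO replicate 1, and within the run 2 were higher and 1 lower, with a median of -0.24. The other was Gja1, connexin 43, with no count in LIF HP and 10.6, 0.523 and 0.748 CPM in PO, at least 4.48-fold lower. That call was lost without PO replicate 1 or any 1 of the LIF HP libraries (edgeR adjusted p up to 0.247). Of 4 tested genes of the 2-cell-like state and the oocyte, Ooep, an oocyte protein, fell (25%, against 5.17% of all genes) at 29.9, 61 and 40.2 CPM against 48.5, 202 and 102 CPM. It was higher within the run (1.06, edgeR adjusted p 0.0408), as 1 of 2 genes of that list called higher there. It kept its call only without PO replicate 1, among the fits without 1 of the 6 libraries (edgeR adjusted p up to 0.25), and lost it also without any 1 of 4 libraries of other groups.

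The stem cell label of both groups was checked on its markers: summed CPM of the 15 naive factors were 3657 to 4390 in LIF HP and 6072 to 7019 in PO. Markers of other cell types were at lower sums. Primitive endoderm genes summed to 31.9 to 64.9 CPM in LIF HP and 41.7 to 86.8 CPM in PO, with Sox17 and Sox7 at 0 counts in all 6 libraries. Trophoblast genes summed to 24.7 to 32.5 and 37.6 to 67 CPM, with Elf5 and Plac1 at 0, and mesendoderm genes to 9.27 to 25.9 and 15.5 to 20.7 CPM, with Mesp1 at 0. No gene of these 3 lists was called by edgeR (0, 2 and 2 at an unadjusted p under 0.05, of 3, 4 and 2 tested, against 28.7% of all genes). DESeq2 called 1 mesendoderm gene higher, and limma-voom 1 mesendoderm gene higher and 1 trophoblast gene in each direction.

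Neural ectoderm genes summed to 384 to 498 CPM in LIF HP and 132 to 369 CPM in PO, mostly Nefl and Tubb3, with Neurog2 at 0. Nefm was the 1 call of 7 (14.3%, against 7.1% of all genes), higher in LIF HP and kept in 1 of the 6 fits without 1 of these libraries, that without PO replicate 1 (edgeR adjusted p up to 0.139), and lost also without CH+LIF HP replicate 2. Fibroblast and feeder genes summed to 313 to 353 and 302 to 444 CPM, mostly Fn1 and Vim, with Lum at 0. Vim, 1 of 4 tested (25%, against 7.1% of all genes), was higher in LIF HP and lost its call without LIF HP replicates 2 or 3 or PO replicate 1 (edgeR adjusted p up to 0.0706). The part of such cells in the results was not tested.

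The single X chromosome of these male cells stood higher in LIF HP. The median centred log2 CPM of 368 X-linked genes, relative to autosomal genes, was -0.10, 0.0038 and -0.13 in LIF HP replicates 1, 2 and 3 and -0.35, -0.32 and -0.28 in PO. The difference was 0.24 (SE 0.057, limma adjusted p 0.00899 over 20 chromosomes), without overlap. The other 15 libraries lay between -0.04 and 0.20, above both groups for the most part. Chromosome 10 was lower, with a difference of -0.12 (limma adjusted p 0.0192), and chromosome 7 did not pass (0.17, limma adjusted p 0.0501). Without LIF HP replicate 2 neither X nor 10 was called, and chromosome 10 was also lost without LIF HP replicate 3 or PO replicate 2 (differences of 0.21 for X and of -0.10, -0.11 and -0.10 for 10). Over genes of at least 10 CPM the difference of chromosome 10 was -0.06 and missed the threshold. With the length trend removed the X difference was 0.18 and missed the threshold (limma adjusted p 0.0658).

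The Y-linked Ddx3y, an RNA helicase, had 79.4, 104 and 72.1 CPM in LIF HP and 20.1, 24.6 and 22.7 CPM in PO (log2 fold change 1.92, edgeR adjusted p 0.00376). It was lower than the mean of the other cultured groups (-0.98, edgeR adjusted p 0.0427), though 2i+LIF HP overlapped it at 40.4, 120.5 and 92 CPM. Of the other genes of that list, Eif2s3y and Uty were not called and Kdm5d had no count in the 6 libraries.

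**Figure D5:**
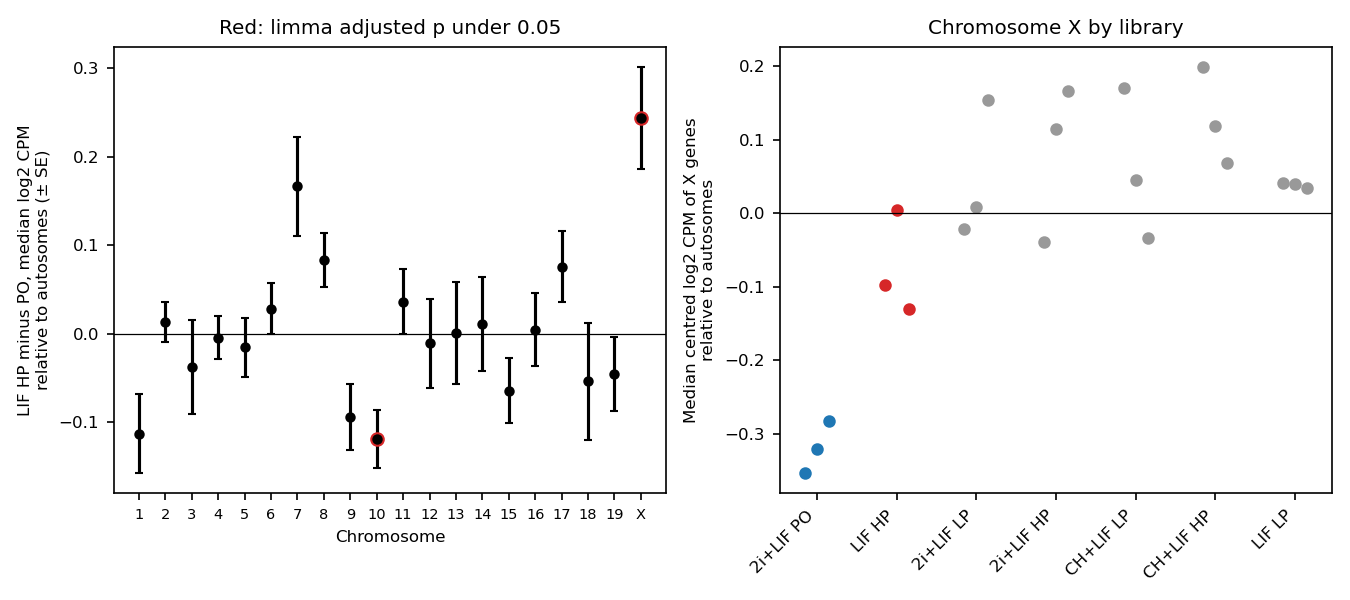
Left: difference of LIF HP minus PO in median log2 CPM relative to autosomes, per chromosome, with standard errors; red rings mark a limma adjusted p under 0.05 (X and 10). Right: the median of X-linked genes in each library by group, with the PO libraries at -0.35 to -0.28 below the LIF HP libraries at -0.13 to 0.0038.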

How the data were processed

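Messenger RNA of 21 libraries in 7 groups of 3 was sequenced from 125 ng of total RNA per library, per the labels' protocols. Per the submitters' processing notes, bcl2fastq, STAR 2.6.0a, HTSeq and the mm10 genome were used. The annotation and the strand setting are not given in the sources used here, so reads of overlapping genes cannot be told apart. Named genes that overlap another are Atf5, Bmp4, Cap2, Ccnd1, Cyp2s1, Cyp51, Ddit3, Dnmt3l, Elmo1, Fdps, Fst, Gm26870, Gnas, Hk2, Igf2r, Mest, Mvd, Ncor1, Ndn, Nefm, Otx2, Pdzrn4, Pou5f1, Prap1, Rpl13, Rps14, Srrm2, Stat3, Sycp3, Tbx3, Tmem132d and Ttn. The authors deposited whole-number counts per gene, used here as deposited. The 5 closing rows of each table, which name no gene, were left out. Of 31053 gene identifiers, 31011 matched a GENCODE M21 symbol, which the lowest identifier kept where several shared it.

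All 21 libraries were fitted together with edgeR 4.0.16 (quasi-likelihood test, TMM scaling, 14 residual degrees of freedom, R 4.3.3) after filterByExpr left 10643 genes. P-values were adjusted over all of these by Benjamini-Hochberg, with 0.05 as the threshold. CPM rest on TMM-scaled totals, and log2 CPM use a prior count of 2. Where a group had no count, a fold is a bound at 3 counts over the group. With 1 to 3 counts, a ratio of unscaled CPM has a 95% interval. Both cover counting error only. Chromosomes with at least 100 tested genes were compared with limma 3.58.1 on per-library medians. Summed total exon length per gene came from GENCODE M21. The scripts were tested on simulated data.

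Genes were named if on a gene list, or as called genes without overlap and at least 5 CPM in 1 group. From these were taken the 10 largest rises and 10 falls by fold and the 6 by CPM in each direction (mitochondrial genes and Gm42418 left out). To these came the 6 in each direction by difference from the other cultured groups where also called there. Some genes that this rule names are not reported here. The members and lists were chosen with earlier results of these data known. Alternatives were DESeq2 1.42.0, its size factors, limma-voom, no filter, thinning to 1132126 counts, the compared groups alone, a replicate block, each library left out, no mitochondrial genes, and removal of the length trend (loess span 0.5), the last chosen after seeing the data.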

Additional observations from a re-analysis of the deposited data

How the results depend on the processing

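Against 1306 genes called between LIF HP and PO, 618 were called with only the groups compared, 2627 by limma-voom with quality weights, and 833 with the length trend removed. Leaving out 1 library of the 21 gave 424 to 1918, the highest without 2i+LIF LP replicate 1. DESeq2 called 1741, its size factors 1313, no filter 1522, thinning 1137 and the fit without mitochondrial genes 1284. Libraries of the same replicate number had r of deviations of 0.239, 0.253 and -0.141 for numbers 1, 2 and 3. Pairs of unlike numbers ran from -0.293 to 0.22. These values do not settle whether replicate numbers pair the libraries, and a replicate block gave 1480 calls. Against the other cultured groups 1322 genes were called, 2699 by limma-voom and 749 with the length trend removed, and 352 to 1787 without 1 library, lowest without LIF HP replicate 3 (352) or 2 (360). Of chromosome medians 2 were called, 4 with the replicate block and 0 to 3 without 1 library of the compared groups (0 without LIF HP replicate 2, 1 without LIF HP replicate 3). The cause of these differences was not tested. Of 104 named genes, 94 were called and none reversed under any of these settings. Calls were lost by 40 without LIF HP replicate 2, 37 without PO replicate 1, 33 with only the groups compared, 20 with the length trend removed, 4 by limma-voom and 0 by DESeq2. With the replicate block mt-Co2 lost its call and Dazl passed, as chromosome 7 did. Depth of 1491637 to 3783043 gene counts in the compared libraries limits genes near 0 CPM to bounds.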

Other observations

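The X-linked Rhox homeobox and Xlr gene families, known from germ cells and placenta, were examined after their values were seen, so the counts here are a description. Of 44 listed members, 11 had enough counts to be tested. Of these, 10 were higher in LIF HP than in PO (against 7.1% of all genes), with a median log2 fold change of 3.08. Of the 10, 8 kept their call without any 1 of the 6 libraries. Rhox5 lost it without LIF HP replicate 2 and Rhox13 without LIF HP replicate 2 or PO replicates 1 or 2 (edgeR adjusted p up to 0.0585 and 0.214), both lost it with the length trend removed, and 7 were called in a fit of the 6 libraries alone. Over all 368 tested X-linked genes, 51 were higher and 15 lower (against 7.1% and 5.17% of all genes), with a median of 0.16. Within the run 22 of them were higher and 20 lower (against 8.33% and 4.09% of all genes), with a median of -0.16. Rhox5 had 692, 1035 and 871 CPM in LIF HP replicates 1, 2 and 3 and 72.3, 409 and 315 CPM in PO. Xlr3c had 67.5, 60.4 and 41.2 CPM against 0, 2.09 and 2.74 CPM. Both genes stood apart between the groups, with PO replicate 1 the lowest library for each. Against the other cultured groups 1 of the 11 was higher, near the share of all genes (8.33%), with a median of 0.60. Members of these families are near-identical in part, so the split of reads between them is uncertain.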
